A study of Canis lupus familiaris with 29 samples.

Results

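Expression of the receptor tyrosine kinases MET, EPHA2 and FLT1 and of the growth factor EREG was described in MDCK cells across 8 groups of arrays. The members are every probe set whose platform annotation gives the single symbol MET, EPHA2, FLT1 or EREG, and there were 6 of them, among 42924 probe sets that are not controls, for 4 genes of 15115 named ones. MET, EPHA2 and EREG each had 1 probe set. FLT1 had 3, called here A, B and C in order of their mean level, where A and B were designed on the same transcript sequence and C on another. MDCK is an epithelial cell line from dog kidney, and here its type II strain was grown flat (2D) or inside collagen (3D). In 3D the groups were HGF with U0126 (3 arrays), HGF with PD-98059 (3 arrays), HGF alone (4 arrays) and untreated control (4 arrays). In 2D they were HGF with U0126 (3 arrays), HGF with PD-98059 (4 arrays), HGF alone (4 arrays) and untreated control (4 arrays). Every inhibitor group also received HGF, no group received an inhibitor alone, and the sources used here state neither doses nor times. The labels do not say whether replicates were separate cultures, so p-values measure only how these arrays vary among themselves, which may be technical, and the number of arrays limits the precision of every value.

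MET is the cell-surface receptor of hepatocyte growth factor (HGF), and its activation makes MDCK cells scatter in flat culture and form tubules in collagen. EPHA2 binds membrane-bound ephrin-A ligands on neighbouring cells, and FLT1 is a receptor of vascular endothelial growth factor that is best known in blood vessels. EREG, epiregulin, is a ligand of the EGF receptor family that is made as a membrane protein and released by shedding. Receptors of this class signal through RAS, RAF, MEK and ERK, and U0126 and PD-98059 are structurally different inhibitors of MEK.

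Levels are the deposited log2 values per probe set, and a difference is given on the log2 scale ± its standard error (SE) from a limma model over all 29 arrays. A probe set rose or fell where the limma p-value, adjusted by the Benjamini-Hochberg method over 16571 tested probe sets, was under 0.05. Group means under log2 5 are called dim, and folds that start there rest on background signal. All 6 member probe sets passed the filter of log2 5 in at least 3 arrays. EPHA2 reached that level in 3 arrays and EREG in 6, all of them HGF arrays, so both had to differ between HGF and the other groups, and no count that includes them is given as support. FLT1 probe set C reached it in 13 arrays, and MET and FLT1 probe sets A and B reached it in all 29. Levels of different probe sets are not compared with each other. Fewer cells that express a gene and less of its RNA per cell cannot be told apart in these bulk samples.

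The label of an epithelial line was examined first. Of 7 epithelial marker genes, 6 were tested and had a median level over log2 5, while CDH1 was dim in every array and reached at most 3.84. Whether the CDH1 probe set responds to its transcript was not tested, so absence of CDH1 is not shown. Of 7 endothelial markers, the cells in which FLT1 is best known, none was tested, and the highest level of any of them was 4.69. None of 5 fibroblast markers was tested, and their highest level was 4.28. Of 3 leukocyte markers, PTPRC and ITGAM reached at most 2.94 and 2.15, while CD68 reached 6.79. The summed log2 level of the 3 leukocyte markers was 9.59 to 11.68 in 2D HGF and 7.60 to 7.80 in 2D control, without overlap, and 7.80 to 8.12 in 3D HGF and 7.75 to 8.37 in 3D control, with overlap. PTPRC ran only from 2.73 to 2.94 and ITGAM from 2.08 to 2.15 over all arrays, so the gap in 2D rests on CD68. The summed level of the 7 epithelial markers was 79.4 to 80.4 in 3D HGF and 82.2 to 82.5 in 3D control, and 81.3 to 82.0 in 2D HGF and 82.8 to 83.4 in 2D control. The epithelial sum was thus lower with HGF in both cultures, and with HGF and an inhibitor it also stayed below control, at 80.3 to 80.6 with U0126 and 80.8 to 81.6 with PD-98059 in 3D and at 80.7 to 80.9 and 80.7 to 81.3 in 2D. The part of these sums in the members' results was not tested.

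Array quality also moved with the groups. An index of RNA quality, the mean 3′ minus 5′ (or middle) difference of control probe sets for 3 housekeeping genes, is higher where the 5′ end is under-represented. It averaged 1.68 ± 0.583 in 3D HGF, 1.93 ± 0.238 in 3D control, 0.838 ± 0.0476 in 2D HGF and 1.44 ± 0.1004 in 2D control (SD, n = 4 each). In the 3D HGF group it was 2.46, 1.73, 1.42 and 1.09 in replicates 1 to 4. All arrays of 2D HGF, at 0.798 to 0.902, lay below every array of the other groups. Fits with the index as covariate carry a relation within groups, mostly within 3D HGF, over to differences between groups. They cannot tell the index apart from the group. Correlations between arrays of the same group ran from 0.964 to 0.997.

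The MET transcript was highest in 2D cells given HGF, and no other group overlapped that one. In 2D HGF the log2 level was 10.10, 9.98, 10.02 and 9.84, and in 2D control it was 8.99, 8.73, 8.78 and 8.95. HGF thus raised MET 2.18-fold in 2D (1.12 ± 0.16, limma adjusted p = 1.85e-06), with no overlap between the groups. With the RNA-quality index as a covariate the difference was 0.71 ± 0.15 (adjusted p = 0.000266). In 3D HGF the level was 8.36, 8.72, 9.07 and 9.47, against 8.56, 8.71, 8.57 and 8.66 in 3D control. The 3D HGF arrays spread on both sides of the controls, and the difference of 0.28 ± 0.16 did not pass (adjusted p = 0.141). Within 3D HGF, MET was lowest in replicate 1 and highest in replicate 4, the arrays with the highest and the lowest RNA-quality index. With that index as a covariate the difference in 3D was 0.10 ± 0.13 (adjusted p = 0.486). Leaving out replicate 1 gave a difference of 0.46 that passed (adjusted p = 0.00938), and leaving out replicate 4 gave 0.093. Median centring (0.38), quantile normalization (0.36) and array weights (0.37) each gave a difference that passed.

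The HGF effect on MET was smaller in 3D than in 2D by 0.84 ± 0.23 (adjusted p = 0.00398). Between the HGF groups, 3D minus 2D, the MET difference was -1.08 ± 0.16 (adjusted p = 2.45e-06). With the RNA-quality index as covariate that gap was -0.50 ± 0.17 (adjusted p = 0.0147). In 3D cells given HGF and U0126 the MET level was 7.69, 8.51 and 8.29, and with PD-98059 it was 8.60, 8.42 and 8.60. In 2D cells given HGF it was 8.60, 8.37 and 8.42 with U0126 and 8.49, 8.33, 8.36 and 8.54 with PD-98059. Both inhibitors brought MET in 2D below every array of HGF alone and also below every control array. Relative to HGF alone in 2D, MET fell 2.87-fold with U0126 (-1.52 ± 0.18, adjusted p = 5.93e-08) and 2.94-fold with PD-98059 (-1.55 ± 0.16, adjusted p = 9.43e-09). In 3D it fell 1.67-fold with U0126 (-0.74 ± 0.18, adjusted p = 0.00106), where 1 value, 8.51, lay inside the HGF range. That fall did not pass when only the compared groups were fitted (adjusted p = 0.0919). With PD-98059 in 3D the difference of -0.37 ± 0.18 did not pass (adjusted p = 0.102), and it passed once the RNA-quality index was a covariate (-0.38, adjusted p = 0.0170) or 3D HGF replicate 1 was left out (-0.55). Array weights (-0.47), quantile normalization (-0.48) and median centring (-0.50) each let it pass too.

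Set against untreated cells, MET with HGF and an inhibitor had a mean below that of control in all 4 pairs. The difference with U0126 in 3D was -0.46 ± 0.18 (adjusted p = 0.0470), just past the threshold. The call was lost in 6 of 7 fits that left out 1 array of either group, and without replicate 1 of the U0126 group the difference was -0.22 (adjusted p = 0.406). In 2D the difference was -0.40 ± 0.18 with U0126 (adjusted p = 0.132) and -0.43 ± 0.16 with PD-98059 (adjusted p = 0.0549), and neither passed although the arrays did not overlap with control. Both passed when only the compared groups were fitted (adjusted p = 0.0339 and 0.0109). From high to low, the mean MET level ran 9.99 in 2D HGF, 8.90 in 3D HGF, 8.86 in 2D control, 8.62 in 3D control, 8.54 in 3D HGF with PD-98059, 8.46 in 2D HGF with U0126, 8.43 in 2D HGF with PD-98059 and 8.16 in 3D HGF with U0126. In this order only the first pair of neighbours and the pair of controls had ranges that did not overlap, and the controls, 3D minus 2D, differed by -0.24 ± 0.16 (adjusted p = 0.234).

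**Figure D1:**
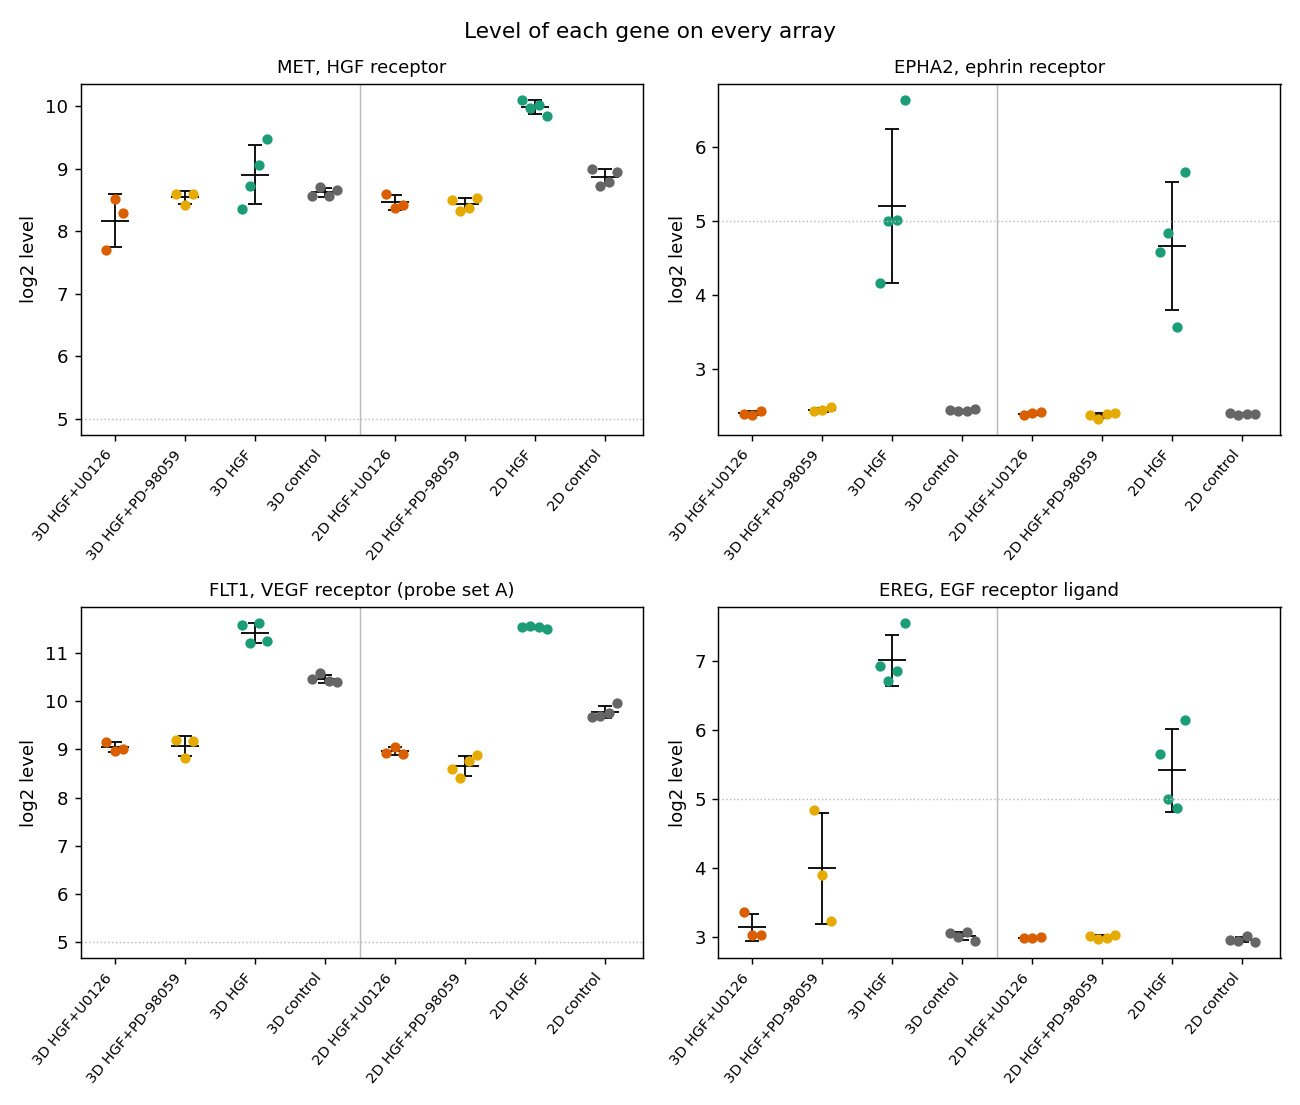
Log2 level of MET, EPHA2, FLT1 (probe set A) and EREG on each of the 29 arrays by group, with points for arrays, bars for the group mean ± SD and a dotted line at log2 5. MET stood apart in 2D HGF (9.84 to 10.10), EPHA2 and EREG were above the other groups in both HGF groups, and FLT1 lay below control in all 4 inhibitor groups.

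EPHA2 left its floor in the HGF groups alone, with a mean of 5.20 in 3D HGF and a still dim 4.67 in 2D HGF, and its arrays spread widely there. In 3D HGF the level was 4.16, 4.996, 5.01 and 6.64, against 2.43 to 2.46 on the 4 arrays of 3D control. In 2D HGF it was 4.59, 4.84, 3.57 and 5.66, against 2.39 to 2.40 on the 4 arrays of 2D control. Every HGF array lay above every control array of its culture, and the 2 HGF groups overlapped. The difference was 2.76 ± 0.34 in 3D (adjusted p = 1.04e-07) and 2.27 ± 0.34 in 2D (adjusted p = 2.79e-06), from dim levels in control. That SE comes from 1 spread shared by all 8 groups, while the SD was 1.04 in 3D HGF and 0.86 in 2D HGF. Over the alternatives the limma adjusted p reached 0.000598 in 3D and 0.000635 in 2D. The probe set was admitted to the test by its HGF arrays, so a difference in that direction was built into its selection. In 3D HGF the order of the replicates was that of MET, lowest in replicate 1 and highest in replicate 4, opposite to the RNA-quality index. In the 6 groups without HGF alone the level stayed between 2.33 and 2.48 on every array.

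With HGF and U0126, EPHA2 was 2.38 to 2.43 in 3D and 2.37 to 2.42 in 2D. With HGF and PD-98059 it was 2.43 to 2.48 in 3D and 2.33 to 2.40 in 2D. All of these arrays lay below every HGF array, and against HGF alone the differences were -2.80 ± 0.37 and -2.75 ± 0.37 with U0126 and PD-98059 in 3D, and -2.27 ± 0.37 and -2.29 ± 0.34 in 2D. A fall from HGF alone was built into the selection of this probe set by its HGF arrays. Against control all 4 differences were within 0.04 of 0, with adjusted p of 0.953 or more. The effect of HGF on EPHA2 in 3D minus that in 2D was 0.49 ± 0.48 (adjusted p = 0.427), with a 95% interval of -0.50 to 1.48. Between the HGF groups, 3D minus 2D, the difference was 0.54 ± 0.34 (adjusted p = 0.171). It passed at 0.88 without 3D HGF replicate 1 and at 0.87 without 2D HGF replicate 4. With the RNA-quality index as covariate it was 1.55 ± 0.41 (adjusted p = 0.00214). The HGF groups share no index values and EPHA2 lay at its floor in all other groups, so that value rests on a relation carried over between groups.

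FLT1 was well above log2 5 at probe sets A and B in every group, rose with HGF in both cultures and fell below the untreated level when either MEK inhibitor was added. At probe set A the level was 11.58, 11.21, 11.62 and 11.26 in 3D HGF, against 10.47, 10.58, 10.43 and 10.40 in 3D control. In 2D HGF it was 11.55, 11.57, 11.55 and 11.50, against 9.68, 9.69, 9.76 and 9.96 in 2D control. The groups did not overlap in either culture, and HGF arrays reached about the same level in both. The rise was 1.93-fold in 3D (0.95 ± 0.10, adjusted p = 1.61e-08) and 3.40-fold in 2D (1.76 ± 0.10, adjusted p = 1.55e-13). Probe set B rose 1.84-fold in 3D (0.88 ± 0.12, adjusted p = 3.30e-07) and 4.58-fold in 2D (2.19 ± 0.12, adjusted p = 1.57e-14). The effect of HGF was smaller in 3D than in 2D by 0.82 ± 0.15 at probe set A (adjusted p = 6.43e-05) and by 1.32 ± 0.16 at probe set B (adjusted p = 3.30e-07). At A the difference between HGF groups, 3D minus 2D, was -0.12 ± 0.10, and that between controls was 0.69 ± 0.10. At B these differences were -0.48 ± 0.12 and 0.84 ± 0.12. Both values thus rest more on the gap between controls, on which probe set C disagreed, than on that between HGF groups.

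With HGF and U0126, probe set A was 9.16, 8.97 and 9.02 in 3D and 8.93, 9.06 and 8.91 in 2D. With HGF and PD-98059 it was 9.19, 8.83 and 9.18 in 3D and 8.59, 8.41, 8.77 and 8.89 in 2D. All of these arrays lay below every control array of their culture. Relative to HGF alone, probe set A fell 5.16-fold with U0126 and 5.09-fold with PD-98059 in 3D (-2.37 ± 0.11 and -2.35 ± 0.11), and 5.95-fold and 7.34-fold in 2D (-2.57 ± 0.11 and -2.88 ± 0.10). Relative to control the level of probe set A was lower by 2.68-fold with U0126 (-1.42 ± 0.11, adjusted p = 1.20e-09) and by 2.64-fold with PD-98059 (-1.40 ± 0.11, adjusted p = 4.83e-10) in 3D. In 2D it was lower by 1.75-fold with U0126 (-0.81 ± 0.11, adjusted p = 8.89e-06) and by 2.16-fold with PD-98059 (-1.11 ± 0.10, adjusted p = 8.04e-09). Probe set B was also below control in the same 4 pairs, by -1.02 ± 0.13 and -1.38 ± 0.13 with U0126 and PD-98059 in 3D and by -0.93 ± 0.13 and -1.20 ± 0.12 in 2D, each with an adjusted p of 5.25e-06 or less.

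**Figure D2:**
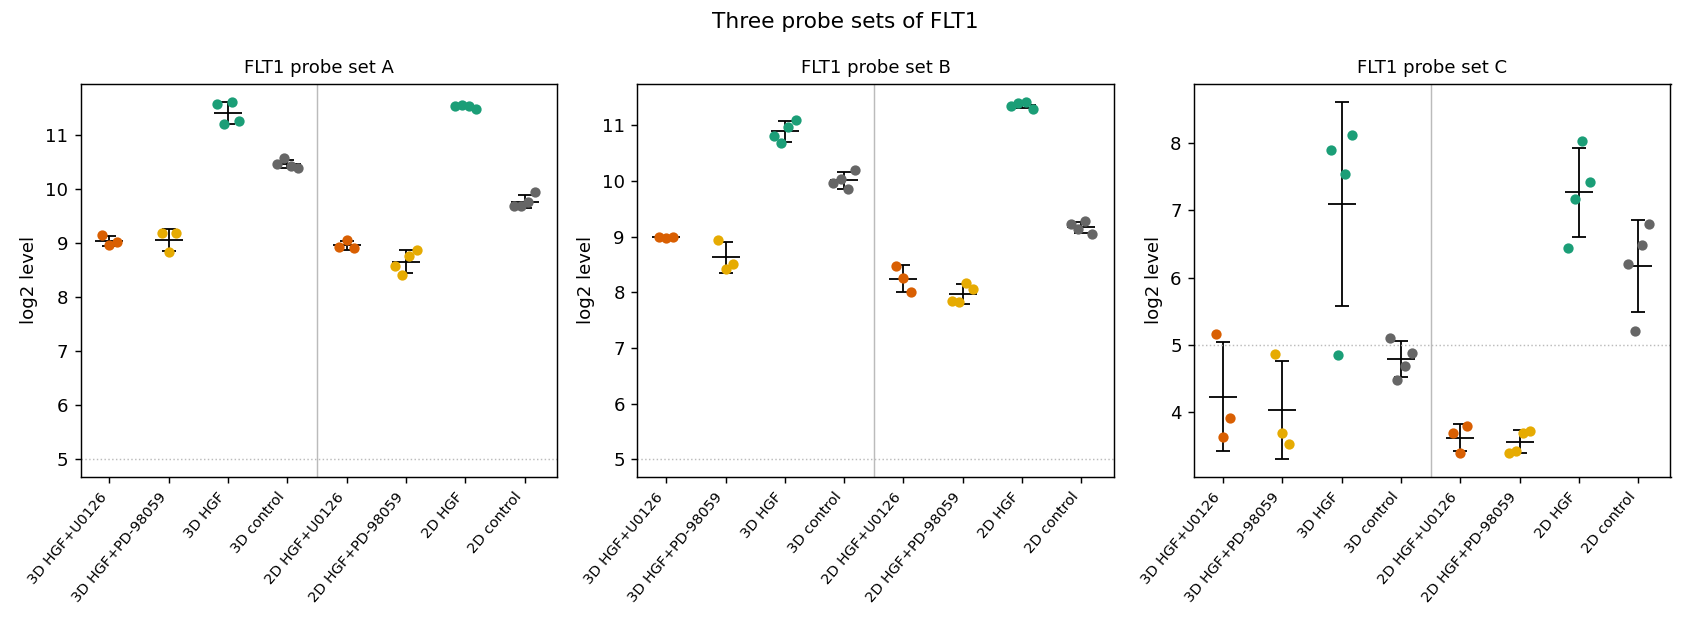
Log2 level of the 3 FLT1 probe sets on each array by group, each panel with its own vertical scale, with bars for the group mean ± SD and a dotted line at log2 5. In all panels HGF groups have the highest means and inhibitor groups the lowest, while 3D control lies above 2D control at probe sets A and B and below it at C.

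Probe set C was dim in 3D control, with a mean of 4.79, and its arrays spread widely in 3D HGF (SD 1.52). In 3D HGF it was 7.90, 4.85, 7.54 and 8.12, against 5.10, 4.47, 4.69 and 4.88 in 3D control, a difference of 2.31 ± 0.50 (adjusted p = 0.000280). Replicate 2 of 3D HGF lay within the control range, and without replicates 1 and 4 of that group the difference was 1.41 ± 0.55 (adjusted p = 0.0312). In 2D HGF it was 6.45, 7.16, 8.03 and 7.43, against 6.20, 5.21, 6.48 and 6.80 in 2D control, and the difference of 1.097 ± 0.50 did not pass (adjusted p = 0.0676). That difference passed without 2D HGF replicate 1 (1.37) or 2D control replicate 4 (1.31), with array weights (1.39, adjusted p = 0.00603), with the compared groups alone (adjusted p = 0.0342), with the replicate number as a block (adjusted p = 0.0340) and without 3D HGF replicates 1 and 4 (adjusted p = 0.0390). The effect of HGF in 3D minus that in 2D was 1.22 ± 0.71 (adjusted p = 0.165), opposite in sign to probe sets A and B, while leaving out 3D HGF replicate 2 gave 1.97, which passed (adjusted p = 0.00286). With an inhibitor probe set C was dim, with means of 4.23 with U0126 and 4.03 with PD-98059 in 3D and 3.62 and 3.55 in 2D. Against 2D control it fell by 2.55 ± 0.54 on the log2 scale with U0126 (adjusted p = 0.00139) and by 2.62 ± 0.50 with PD-98059 (adjusted p = 0.000316), while in 3D neither difference passed (adjusted p = 0.468 and 0.298).

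The 3 probe sets disagreed on the untreated cultures. In 3D control, FLT1 was higher than in 2D control by 0.69 ± 0.10 at probe set A (adjusted p = 4.45e-06) and by 0.84 ± 0.12 at B (adjusted p = 1.22e-06), and it fell by 1.38 ± 0.50 on the log2 scale at C (adjusted p = 0.0233). The groups did not overlap at any of the 3. The call at C was lost without 3D control replicate 2, 2D control replicate 3 or 2D control replicate 4, and once the RNA-quality index was a covariate (adjusted p = 0.0584). No statement on the level of FLT1 in untreated 3D against 2D cells is therefore made for the gene as a whole. With HGF the 3D group was lower than the 2D group at probe set B by 0.48 ± 0.12 (adjusted p = 0.000821), a call that was lost with the RNA-quality index as covariate (-0.27, adjusted p = 0.150), and the difference at A was -0.12 ± 0.10 (adjusted p = 0.320). With HGF and PD-98059 the 3D group was higher at A (0.41 ± 0.11, adjusted p = 0.00395) and B (0.66 ± 0.13, adjusted p = 9.27e-05), and with HGF and U0126 it was higher at B (0.74 ± 0.13, adjusted p = 6.98e-05). In the order of mean levels at probe set A, both HGF groups came first and overlapped, followed by 3D control and 2D control, which overlapped with no neighbour. The inhibitor groups came last and overlapped with their neighbours, except that 2D HGF with U0126 lay above 2D HGF with PD-98059.

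EREG was at background in untreated cells and in 2D cells given an inhibitor, and it was well above background in 3D cells given HGF. In 3D HGF the level was 6.94, 6.72, 6.86 and 7.56, against 3.06, 3.00, 3.07 and 2.94 in 3D control. In 2D HGF it was 5.65, 5.0, 4.86 and 6.16, against 2.94, 2.94, 3.01 and 2.93 in 2D control. Every HGF array lay above every control array, and every 3D HGF array lay above every 2D HGF array. The difference was 4.003 ± 0.25 in 3D (adjusted p = 4.29e-13) and 2.46 ± 0.25 in 2D (adjusted p = 5.18e-09), both from dim levels. As with EPHA2, this probe set was admitted to the test by HGF arrays. The effect of HGF was larger in 3D than in 2D by 1.54 ± 0.36 (adjusted p = 0.000880), and 3D HGF exceeded 2D HGF by 1.60 ± 0.25 (adjusted p = 4.28e-06), a 3.04-fold difference.

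The inhibitors lowered EREG in both cultures, and in 3D the 3 arrays with PD-98059 spread widely. With HGF and U0126 the level was 3.36, 3.02 and 3.02 in 3D and 2.99, 2.97 and 3.00 in 2D. With HGF and PD-98059 it was 4.84, 3.90 and 3.23 in 3D and 3.01, 2.97, 2.99 and 3.02 in 2D. No inhibitor array overlapped with HGF alone. Since HGF arrays admitted this probe set to the test, a fall from HGF alone was built into its selection. Relative to HGF alone the difference was -3.88 ± 0.27 with U0126 (adjusted p = 6.99e-12) and -3.03 ± 0.27 with PD-98059 (adjusted p = 1.14e-09) in 3D, and -2.43 ± 0.27 and -2.42 ± 0.25 in 2D. Against 3D control, EREG with PD-98059 was higher by 0.98 ± 0.27 (adjusted p = 0.00565), and without replicate 1 of that group the difference was 0.55 (adjusted p = 0.103). With U0126 in 3D the difference from control was 0.12 ± 0.27 (adjusted p = 0.788), with a 95% interval of -0.44 to 0.68. In 2D the differences from control were 0.03 ± 0.27 with U0126 and 0.04 ± 0.25 with PD-98059. Between cultures, the group given HGF and PD-98059 was higher in 3D by 0.995 ± 0.27 (adjusted p = 0.00340), and without 3D replicate 1 by 0.57 (adjusted p = 0.0708). In the order of mean levels, 3D HGF, 2D HGF and 3D HGF with PD-98059 did not overlap, and the 5 lower groups, with means of 2.95 to 3.13, each overlapped with a neighbour.

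By comparison, HGF raised 5 of the 6 probe sets in 3D, all but MET, where 29.4% of all tested probe sets rose. In 2D it raised 5 of 6, all but FLT1 probe set C, whose call depends on the settings given above, where 26.3% of all tested probe sets rose. EPHA2 and EREG are among them and had to differ. The effect of HGF differed between cultures at 4 of 6 probe sets, against 48.3% of all tested probe sets, and 6 probe sets are too few to set that share apart from the background. MET and FLT1 probe sets A and B had the smaller effect in 3D and EREG the larger. Both controls of EREG lay at background, so its difference in effect (1.54) restates the gap between the HGF groups (1.60). The value of MET rests mostly on the gap between HGF groups, -1.08 for 3D minus 2D, against -0.24 between controls. The values of FLT1 probe sets A and B rest more on the gap between controls (0.69 and 0.84) than on that between HGF groups (-0.12 and -0.48). Probe set C went the other way between controls (-1.38).

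U0126 lowered all 6 probe sets relative to HGF alone in 3D, where 23.8% of all tested probe sets fell, and all 6 in 2D, where 24.3% fell. PD-98059 lowered 5 of 6 in 3D, all but MET, where 15.4% of all tested probe sets fell, and all 6 in 2D, where 24.9% fell. EPHA2 and EREG are in all of these counts and had to differ, and 3 of the 6 probe sets are of 1 gene, FLT1. These comparisons share their HGF arrays with the HGF comparisons, so the counts are not independent of each other. The effect of U0126 differed between cultures at 3 of 6 probe sets, against 36.5% of all tested. It was smaller in size in 3D at MET (0.78 ± 0.25, adjusted p = 0.0159) and FLT1 probe set B (1.22 ± 0.18), and larger at EREG (-1.45 ± 0.38, adjusted p = 0.00409). Both U0126 groups of EREG lay at background, so its value again restates the gap between the HGF groups and is no separate result. The call for MET was lost with array weights (0.46), with the RNA-quality index as covariate (0.41), with the compared groups alone and without 3D HGF with U0126 replicate 2 (0.61). The effect of PD-98059 differed between cultures at 3 of 6, against 34.2% of all tested, and was smaller in size in 3D at MET (1.19 ± 0.24, adjusted p = 0.000351) and at FLT1 probe sets A (0.53 ± 0.15, adjusted p = 0.00917) and B (1.13 ± 0.17).

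**Figure D3:**
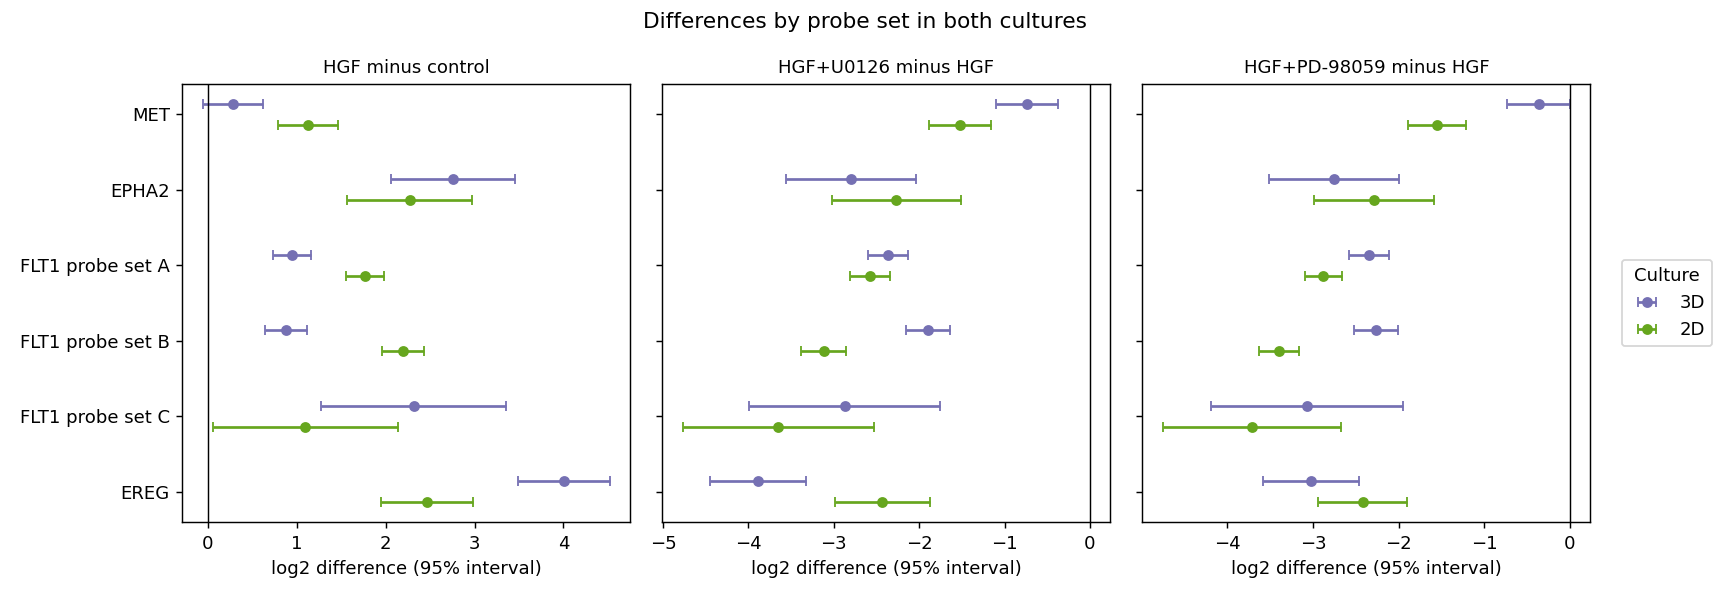
Log2 difference of each member probe set with its 95% interval, in 3D and 2D, for HGF minus control and for each inhibitor with HGF minus HGF alone. Intervals of MET include or touch 0 in 3D for HGF and for PD-98059, and EREG has its largest differences in 3D in all panels.

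The 2 inhibitors, compared directly as U0126 minus PD-98059, differed at none of the 6 probe sets by limma in 3D, where 11.8% of all tested probe sets did, and at none in 2D, where 1.62% did. At an unadjusted p under 0.05 there were 2 of 6 in each culture, against 25.4% of all tested probe sets in 3D and 10.8% in 2D. In 3D these were EREG, at -0.86 ± 0.29 (adjusted p = 0.0551) with a 95% interval of -1.46 to -0.26, and FLT1 probe set B, at 0.36 ± 0.13 (adjusted p = 0.0827) with an interval of 0.08 to 0.64. FLT1 probe set B passed after quantile normalization (0.43) or median centring (0.40), with array weights (0.44) and without 3D HGF with PD-98059 replicate 1 (0.52, adjusted p = 0.0131). EREG passed with the replicate number as a block (adjusted p = 0.0360) and without 3D HGF with PD-98059 replicate 3 (-1.24). MET in 3D differed by -0.37 ± 0.19 (adjusted p = 0.217) with an interval of -0.76 to 0.02, and it passed with array weights (-0.58) and once the RNA-quality index was a covariate (-0.40, adjusted p = 0.0473). In 2D the probe sets were FLT1 A, at 0.30 ± 0.11 (adjusted p = 0.238) with an interval of 0.07 to 0.54, and FLT1 B, at 0.28 ± 0.13 (adjusted p = 0.411). The intervals in 2D were -0.33 to 0.40 for MET, -0.73 to 0.78 for EPHA2 and -0.57 to 0.55 for EREG. Where a difference did not pass, these intervals are what the model allows, and they do not show that both compounds act alike. The model shares 1 estimate of spread over all 8 groups, so intervals of EPHA2 and EREG also carry the spread of the HGF arrays. In 2D both genes lay at background with either inhibitor, so little signal was left to compare. There the SD with U0126 and PD-98059 was 0.023 and 0.035 for EPHA2 and 0.013 and 0.023 for EREG. Whether the doses were matched is not stated.

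Cells given HGF and an inhibitor were also set against untreated cells. With U0126 in 3D, 3 of 6 probe sets differed (MET and FLT1 A and B, all lower), against 33.8% of all tested probe sets. With PD-98059 in 3D, 3 of 6 differed (FLT1 A and B lower, EREG higher), against 38.8%. In 2D the 3 FLT1 probe sets were lower with U0126, against 17.0% of all tested probe sets, and with PD-98059, against 25.6%. These comparisons share the inhibitor arrays with those above. Between cultures, 3D against 2D, 1 of 6 probe sets differed with HGF and U0126, against 41.8% of all tested, and 3 of 6 with HGF and PD-98059, against 50.7%. With HGF alone 3 of 6 differed, against 64.6% of all tested, and in control 3 of 6, against 52.3%. In all 4 pairs the members' share was at or below that of all tested probe sets.

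Other genes of the same pathways were described from lists. Of 45 other receptor tyrosine kinase genes with a probe set, 15 were tested, and with HGF 3 rose and 5 fell in 3D, and 5 rose and 4 fell in 2D. Over all tested probe sets 29.4% rose and 32.6% fell in 3D, and 26.3% rose and 29.2% fell in 2D. The median log2 difference of the list was -0.01 in 3D and 0.02 in 2D, against -0.003 and -0.03 over all tested probe sets. ERBB3, a co-receptor of the EGF receptor family, fell by 3.00 ± 0.14 on the log2 scale in 3D (adjusted p = 1.73e-15) and by 1.13 ± 0.14 in 2D. FGFR2, a receptor of fibroblast growth factors, fell by 1.68 ± 0.07 in 3D and by 1.22 ± 0.07 in 2D. EPHA1, of the same family as EPHA2, rose by 0.84 ± 0.13 in 3D, and its difference in 2D was -0.04 ± 0.13 (adjusted p = 0.824). IGF1R, the receptor of insulin-like growth factor 1, rose by 0.63 ± 0.19 in 3D and by 1.02 ± 0.19 in 2D. EGFR, a receptor that EREG activates, rose by 1.53 ± 0.12 in 2D (adjusted p = 4.99e-11), and the difference in 3D was -0.22 ± 0.12 (adjusted p = 0.116). DDR2, a collagen receptor, rose by 1.33 ± 0.23 in 2D from a dim level, and its difference in 3D was -0.42 ± 0.23 (adjusted p = 0.111).

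Among 11 genes for EGF family ligands and their shedding that have a probe set, 4 were tested. HGF lowered 3 and raised none in 3D, and raised 2 and lowered 1 in 2D, with median differences of -0.42 in 3D and 0.19 in 2D. The shares and medians over all tested probe sets are those given for the receptor list, and 4 genes are too few to set against them. EGF, the founding ligand of the family, moved opposite to EREG in each culture. Its level was 7.63, 7.54, 7.90 and 6.78 in 3D HGF and 12.15, 12.001, 12.23 and 12.09 in 3D control, and it fell by 4.65 ± 0.15 on the log2 scale (adjusted p = 4.99e-19). In 2D HGF it was 9.34, 9.24, 9.66 and 9.67, against 12.48, 12.39, 12.26 and 12.42 in 2D control, a fall of 2.91 ± 0.15 on the log2 scale. Relative to HGF alone EGF rose by 4.65 ± 0.16 with U0126 and by 4.17 ± 0.16 with PD-98059 in 3D, and by 3.27 ± 0.16 and 3.17 ± 0.15 in 2D. NRG1, a ligand of ERBB3, rose by 0.58 ± 0.12 with HGF in 2D, where its difference in 3D was 0.23 ± 0.12 (adjusted p = 0.0993). RHBDF1, an inactive rhomboid protein, fell by 0.56 ± 0.13 in 3D and rose by 0.44 ± 0.13 in 2D. The other ligands of the EGF receptor that were looked up were dim in all groups, with a highest level on any array of 3.36 for TGFA, 2.97 for HBEGF, 2.68 for AREG and 2.94 for BTC, and the receptor ERBB2 reached at most 4.96.

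**Figure D4:**
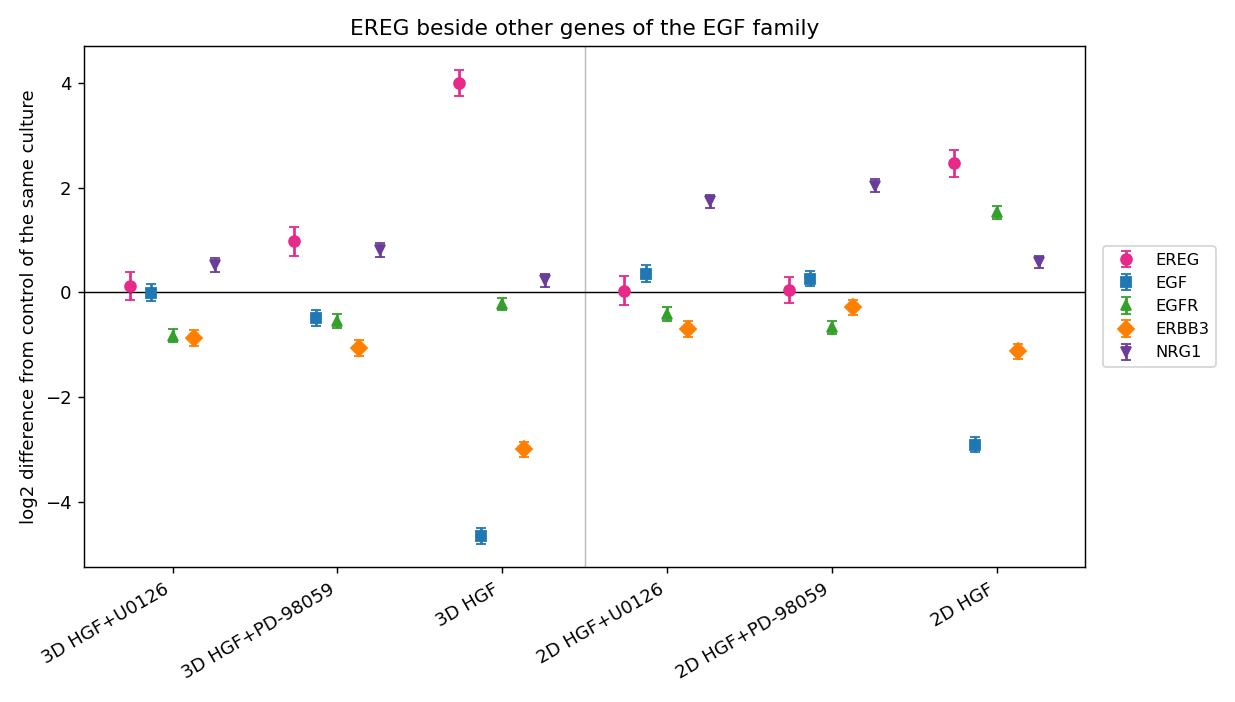
Log2 difference from control of the same culture for EREG, EGF, EGFR, ERBB3 and NRG1 in the 3 treated groups of each culture, with bars for the SE. With HGF, EREG lies above 0 (4.003 in 3D and 2.46 in 2D) and EGF below it (-4.65 and -2.91), and with HGF and U0126 both lie within 0.36 of 0.

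Of 34 genes of the MET pathway with a probe set, 19 were tested, and HGF raised 6 and lowered 8 in 3D and raised 8 and lowered 3 in 2D. Over all tested probe sets 29.4% rose and 32.6% fell in 3D, and 26.3% rose and 29.2% fell in 2D. The median difference of the list was -0.16 in 3D and 0.24 in 2D, against -0.003 and -0.03 over all tested probe sets. ERRFI1, a feedback inhibitor of the EGF receptor, rose by 2.52 ± 0.12 in both cultures. The adaptor GRB2 rose by 2.62 ± 0.60 in 3D, and its difference in 2D was -1.38 ± 0.60 (adjusted p = 0.0526). HRAS, a small GTPase, rose by 1.88 ± 0.21 in 3D and by 2.22 ± 0.21 in 2D. GAB1, the docking protein of MET, fell by 2.09 ± 0.20 on the log2 scale in 3D, to a dim level, and by 1.42 ± 0.20 in 2D. PIK3R1, a regulatory subunit of PI3-kinase, fell by 1.47 ± 0.08 in 3D and by 0.85 ± 0.08 in 2D. The ligand gene HGF was dim in every group and reached at most 2.14.

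Of the 7 ephrin genes with a probe set, 1 was tested. EFNA1, a ligand of EPHA2, fell with HGF by 1.25 ± 0.09 on the log2 scale in 3D (adjusted p = 1.41e-11), and in 2D the difference was -0.08 ± 0.09 (adjusted p = 0.528). Of 9 VEGF family genes with a probe set, 4 were tested, and HGF raised 1 and lowered 2 in 3D and raised 3 in 2D, with median differences of -0.16 and 0.53, beside the same shares and medians over all tested probe sets. VEGFA, a ligand of FLT1, was 9.79, 9.52, 9.63 and 9.41 in 3D HGF and 8.41, 8.11, 8.46 and 8.17 in 3D control, a rise of 1.30 ± 0.15 (adjusted p = 4.58e-08). In 2D it was 11.87, 11.68, 11.60 and 11.83 with HGF and 9.59, 9.72, 9.47 and 9.76 in control, a rise of 2.11 ± 0.15 (adjusted p = 8.15e-12). Its groups did not overlap in either culture. VEGFC, a ligand of other receptors of the family, fell by 0.63 ± 0.12 in 3D and rose by 0.80 ± 0.12 in 2D, and VEGFB, another FLT1 ligand, fell by 0.50 ± 0.09 in 3D and rose by 0.26 ± 0.09 in 2D. PGF, which binds FLT1 too, and KDR, the second VEGF receptor, were dim and reached at most 1.94 and 2.92.

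The genes most like each member over the 29 arrays were found by Pearson's r among 11907 tested probe sets of other named genes. A gene with several probe sets was taken at the one with the highest r, or the lowest r for the opposite pattern. These r are a description, since all points share the same 8 groups. For MET they were FOS (0.933), a subunit of the AP-1 transcription factor, RASA1 (0.931), which inactivates RAS, and LXN (0.926), a carboxypeptidase inhibitor, and the lowest was PCBD2 (-0.902). For EPHA2 they were ZBED2 (0.923), SH3KBP1 (0.910) and POLR3D (0.910), and the lowest was TMEM62 (-0.948). For FLT1 probe set A they were TRIB1 (0.945), a pseudokinase, NDEL1 (0.939) and the polarity protein PARD3 (0.935), and the lowest was PRKAR2B (-0.959), a regulatory subunit of protein kinase A. For EREG they were TENT5A (0.974), MFSD2A (0.950), a lipid transporter, and P4HA3 (0.939), a subunit of prolyl 4-hydroxylase, and the lowest of all was EGF (-0.971). The mean level of TENT5A was 8.84 in 3D HGF, 6.47 in 2D HGF, 5.18 in 3D HGF with PD-98059 and 3.62 to 4.06 in the other 5 groups, the order seen at EREG in its first 3 places. Among the members, r over the 29 arrays was 0.977 between FLT1 probe sets A and B and 0.924 between EREG and EPHA2, and 0.516 between EREG and MET. For deviations from the group means these r were 0.318, 0.544 and 0.069. EREG and EPHA2 were both admitted to the test by HGF arrays, so a high r between them was partly built in.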

How the data were processed

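Total RNA was labelled with biotin and hybridised to Affymetrix canine arrays, 1 per sample. The authors deposited log2 levels per probe set, and the submitters' processing notes name MAS5, Affymetrix Expression Console 1.1, GCRMA and Partek 6.6 without role or order. The log2 values were used as deposited, with no further normalization, and array medians ran from 3.06 to 3.26. Of 42924 probe sets that are not controls, the 16571 that reached log2 5 in at least 3 of 29 arrays were tested. The platform annotation names 1 gene for 29254 probe sets, several for 439 and none for 13231, and 27680 of the single names matched a RefSeq gene identifier.

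Groups follow the labels of culture, HGF and inhibitor. Tests used limma 3.58.1 under R 4.3.3, fitting lmFit to 8 group means over all 29 arrays, eBayes with trend, two-sided moderated tests and Benjamini-Hochberg adjustment over the tested probe sets in each of 19 comparisons. The model was also run on simulated data with independent noise, with the same spread for a probe set in all groups. That run does not check the unequal spreads of EPHA2 and EREG. Members, gene lists, comparisons and alternatives were chosen with earlier results of these data known. A gene with several probe sets is led by the one with the highest mean over all arrays, and FLT1 is led by probe set A. The list genes named are up to 2 per list and direction with the largest called difference and no overlap between groups, for HGF in each culture, beside genes always looked up. For likeness, the 3 highest and the lowest Pearson r were taken.

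Whether replicate numbers pair arrays was examined from correlations of deviations from the group means. By the titles' numbers they ran from -0.339 to 0.596 over 54 pairs, and 20 exceeded 0.1. By the descriptions' numbers they ran from -0.432 to 0.409 over 49 pairs, and 18 exceeded 0.1. All pairs exceeded 0.1 in 1 of 16 comparisons by either numbering, so the arrays were treated as unpaired. Alternatives were no filter, the compared groups alone, a stricter filter (log2 6), no trend in eBayes, quantile normalization, median centring, array weights, 2 replicate blocks, the RNA-quality index as covariate, 3D HGF replicates 1 and 4 left out, a gene's probe sets averaged, and each array left out in turn. Sequences and positions of the probe sets are not used here.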

Additional observations from a re-analysis of the deposited data

Results flagged for a closer look

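Of 18 tests of whether an effect differed between 3D and 2D, 10 passed at the limma adjusted p threshold, and each is given as the effect in 3D minus that in 2D on the log2 scale. For HGF these were MET at -0.84, FLT1 probe set A at -0.82, FLT1 probe set B at -1.32 and EREG at 1.54. For PD-98059 they were MET at 1.19, FLT1 probe set A at 0.53 and FLT1 probe set B at 1.13. For U0126 they were MET at 0.78, FLT1 probe set B at 1.22 and EREG at -1.45. The HGF arrays enter all of these tests, so they are not independent of each other. EREG lay at background in both controls and both U0126 groups, so its 2 values restate 1 gap, that between the HGF groups. The values of MET all rest mostly on its gap between the HGF groups, -1.08 for 3D minus 2D. Its controls (-0.24), PD-98059 groups (0.11) and U0126 groups (-0.30) did not differ by a call. The HGF values of FLT1 probe sets A and B rest more on the gap between controls (0.69 and 0.84) than on that between HGF groups (-0.12 and -0.48). FLT1 probe set C had the opposite sign to probe sets A and B for HGF, at 1.22, and did not pass. No array stood apart by Dixon's test in any of 30 pairs of a member probe set and a group of 4 arrays. That test was not applied to groups of 3. It did not flag FLT1 probe set C in 3D HGF replicate 2, at 4.85 against 7.54, 7.90 and 8.12. Without that array the HGF effect at C in 3D minus 2D was 1.97 and passed.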

How the results depend on the processing

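Over 12 alternatives and each array left out in turn, the calls for HGF on EPHA2, FLT1 probe sets A and B and EREG and on MET in 2D, and for both inhibitors on these in 2D, held. EPHA2 and EREG had to differ between HGF and the other groups by the filter, so for them this is no support. EPHA2 has no value under the stricter filter, and FLT1 probe sets B and C have none as a gene mean, which leaves 11 alternatives for each. MET for HGF in 3D was 0.36 after quantile normalization, 0.38 after median centring and 0.37 with array weights, and passed, was 0.10 with the RNA-quality covariate (adjusted p = 0.486), and ran from 0.093 to 0.46 with 1 array left out. MET for PD-98059 in 3D was -0.48, -0.50 and -0.47 under the same settings and -0.38 with the RNA-quality covariate, and passed, and ran from -0.55 to -0.18 with 1 array left out. MET for HGF with U0126 against control in 3D lost its call in 6 of 7 fits with 1 array left out, with no filter and with the compared groups alone (-0.46 in both) and with the replicate block (-0.42 by either numbering), and ran from -0.63 to -0.22 with 1 array left out. With the covariate it kept the call, at -0.68. MET for HGF with PD-98059 against control in 2D passed with the compared groups alone, without 3D HGF replicates 1 and 4 and with gene means (-0.43 in each), after quantile normalization or median centring (-0.43 in both), with array weights (-0.39) and with the covariate (-0.48). MET for HGF with U0126 against control in 2D passed with the compared groups alone and without 3D HGF replicates 1 and 4 (-0.40 in both) and with the covariate (-0.48). With the compared groups alone, MET for U0126 in 3D (-0.74) and for the U0126 effect in 3D minus 2D (0.78) lost the call, and 3D minus 2D control (-0.24) gained it. The U0126 effect on MET was also not called with array weights (0.46) or the covariate (0.41), and ran from 0.60 to 1.02 with 1 array left out. MET for U0126 minus PD-98059 in 3D passed with array weights (-0.58) and the covariate (-0.40), and for 3D minus 2D with HGF and U0126 it passed with array weights (-0.52).

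FLT1 probe set C for HGF in 2D passed with array weights (1.39) and, at 1.097, with the compared groups alone, either replicate block and without 3D HGF replicates 1 and 4. FLT1 probe set B for U0126 minus PD-98059 in 3D passed after quantile normalization (0.43) or median centring (0.40) and with array weights (0.44). EREG for that comparison passed with the replicate block by either numbering (-0.86), the covariate (-0.87) and without 3D HGF replicates 1 and 4 (-0.86), and ran from -1.24 to -0.43 with 1 array left out. With 1 array left out, EREG with HGF and PD-98059 ran from 0.55 to 1.35 against control in 3D and from 0.57 to 1.37 for 3D minus 2D, and its PD-98059 effect in 3D minus 2D from -1.03 to -0.23. EPHA2 for 3D minus 2D with HGF was 1.55 with the covariate and ran from 0.058 to 0.88 with 1 array left out. As the mean of its probe sets, which disagree, FLT1 lost the calls for the HGF effect in 3D minus 2D (-0.31), 3D minus 2D control (0.050) and 3D minus 2D with PD-98059 (0.51). The replicate block changed calls of members at the 3 results named with it and at no other, it moved no count of calls over 1.5 times, and the numbers do not pair the arrays.

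Counts of called probe sets moved over 1.5 times as follows. For U0126 minus PD-98059 in 3D, 1957 were called, 1287 with the compared groups alone, 5447 with array weights and 910 to 2032 with 1 array left out. For the same in 2D, 269 were called, 69 with the compared groups alone, 494 after quantile normalization, 519 with array weights, 471 with the covariate, 438 without 3D HGF replicates 1 and 4 and 165 to 312 with 1 array left out. PD-98059 in 3D had 6965 calls and 4365 with the compared groups alone, HGF with U0126 against control in 2D had 2821 and 4426 with array weights, and 3D against 2D with HGF had 10703 and 23761 with no filter. With a gene's probe sets averaged, where fewer features are tested, calls numbered 4580 for HGF in 3D, 4084 in 2D and 3653 for the difference between cultures. They numbered 3705 for U0126 and 3252 for PD-98059 in 3D, 3764 and 3908 for these in 2D, 2825 and 2644 for the differences of these effects between cultures, and 925 and 172 for U0126 minus PD-98059 in 3D and 2D. Against control they numbered 2375 with U0126 and 2990 with PD-98059 in 3D, and 1472 and 2109 with these in 2D, and for 3D against 2D they numbered 3199 with U0126, 3768 with PD-98059, 4795 with HGF and 3918 in control. Of the calls for PD-98059 in 3D 63.3% were higher, against 52.4% after quantile normalization and 46.8% after median centring. For the PD-98059 effect in 3D minus 2D the share was 64.2%, against 53.9% after quantile normalization, and for U0126 minus PD-98059 in 3D it was 25.3%, against 40.0%.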
